A study of Mus musculus with 4 samples.

Results

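These data concern CHG cytosines (C followed by A, C or T and then G) of the mouse hippocampus that were methylated in both hippocampus libraries of the study. A site was taken when each library had at least 20 reads over it and when at least 20% of those reads were methylated in each. This gave 900 sites of 569948 CHG cytosines with 20 reads in both libraries, or 1.58 per 1000, in a table of 4834090 CHG cytosines. The sites were chosen by their levels in both libraries, so those levels are described here and not tested.

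The study gave estriol (E3), an estrogen of pregnancy, or vehicle (CT) to wild-type CD-1 mice and measured DNA methylation in the brains of their female offspring. The mothers were 8 weeks old and carried mini-osmotic pumps from gestation day 9 for 7 days, with 50 µl of E3 at 0.46 mg/ml in DMSO, or DMSO alone in CT. The offspring were 8 weeks old by the labels, untreated themselves and wild type in both groups, of an outbred stock. The study's text places other brain measurements at a later age, so the sources differ on age. The series has 4 libraries, 1 each for E3 and CT from the hippocampus and the frontal cortex, and whether a library came from 1 mouse or a pool is not given in the sources used here. With 1 library a group there is no replicate error: every interval below is a 95% Wilson interval for counting error only, and since PCR reads without molecular identifiers are not independent molecules, even that error is understated. The tissue labels were not checked, since methylation tables hold no marker expression. Mean depth over the CHG table was 35.7 reads in E3 and 12.3 in CT, and the mean CHG level was 2.23% and 2.30%.

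In mammals most DNA methylation sits on CpG, where both strands carry it and the maintenance enzyme DNMT1 copies it at each division. Neurons also gather methylation outside CpG after birth, written by the de novo enzyme DNMT3A, mostly at C followed by A. A CAG reads CTG on the other strand, so both strands of these trinucleotides can be compared. Bisulfite sequencing reads any cytosine that was not converted as methylated and cannot separate methylation from hydroxymethylation. In bulk tissue a partial level in every cell and a full level in some cells cannot be told apart.

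The sites carried a sequence preference that the selection did not use. Below are 5 of the 10 TACAG sites with the most reads, each as 25 bases of GRCm38 read 5′ to 3′ on the strand of the methylated cytosine, with the pentamer in capitals and the methylated cytosine in its middle. They were picked after their values were seen, to show the commonest surroundings.
Pdia3 intron, chr2:121435277-121435301, minus strand: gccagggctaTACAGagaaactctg
Adcy5 intron, chr16:35292485-35292509, plus strand: agtgctgcacTACAGaacaatacct
Tmem131 intron, chr1:36878888-36878912, plus strand: tactgttacaTACAGgacacatgcc
Plekhm3 coding exon, chr1:64820016-64820040, minus strand: cgcgcatgtcTACAGctgcagtctc
intergenic, chr16:85566604-85566628, minus strand: cttgagatggTACAGcacataactc

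At the Pdia3 site, in the gene of an endoplasmic reticulum disulfide isomerase, the level was 49% of 288 reads in E3 and 60% of 72 reads in CT. This site lay in a repeat, and the bases shown for it occurred 882 times in the reference, unlike those of the other sites shown. How many of its reads came from other copies was not tested. At the Adcy5 site, in the gene of an adenylyl cyclase of the brain, it was 26% of 86 reads in E3 and 35% of 48 in CT. At the Tmem131 site it was 25% of 114 reads in E3 and 24% of 37 in CT. These 3 sites had overlapping intervals between the libraries, while the Plekhm3 site did not, with 23% of 90 reads (15.8 to 33.1%) in E3 and 70% of 37 (54.2 to 82.5%) in CT. Around the Plekhm3 site, CHH cytosines (no G in either base after the C) of its strand also differed. Within 50 bases they averaged 1.62% in E3 and 20.5% in CT. The intergenic site on chromosome 16 stood at 49% of 61 reads in E3 and 44% of 43 in CT.

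Of the 900 sites, 760 were CAG (84.4%, interval 81.9 to 86.7%), 103 were CTG (11.4%) and 37 were CCG (4.11%). Over all CHG sites of the same depth CAG made up 47.1%, CTG 44.9% and CCG 8.07%. Put as a rate, 2.83 of 1000 CAG sites were methylated in both libraries, against 0.403 of 1000 CTG sites and 0.805 of 1000 CCG sites. The base 2 before the cytosine was T at 45.9% of the sites against 26.1% of all, and the base 1 before was A at 31.9% against 23.1%. Among CAG sites alone T was at 48.8% against 24.3%, and A at 33.2% (29.9 to 36.6%) against 27.4%, so the excess of A was smaller there. The pentamer TACAG, searched on the strand of each cytosine, stood at 136 of the 900 sites (15.1%) and at 2.37% of all. Among CAG sites alone it made up 17.9% against 5.03%. It had the highest rate of the pentamers, 10.1 per 1000, followed by TCCAG with 5.46, TGCAG with 4.58, CACAG with 3.81 and TTCAG with 3.50. Of these 5, 4 share the T in front. In CHH, where the same 20 reads and 20% took 5238 of 1518846 cytosines, the base after the cytosine was A at 79.3% against 33.4% of all.

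CAG also had the highest mean level among sites that the threshold left out, while CTG and CCG stood in the reverse order there. CAG sites outside the 900 had a mean level of 2.47% in E3 and 2.54% in CT, CTG sites 1.74% and 1.75%, and CCG sites 1.53% and 1.50%. TACAG sites outside the 900 averaged 3.76% in E3 and 4.02% in CT. By the lower of the 2 library levels, CAG made up 46.1% of sites at 0, 52.9% at 1 to 5%, 66.6% at 6 to 10%, 77.1% at 11 to 15% and 86.7% at 16 to 19%. It was then 86.7% at 20 to 29%, 85.6% at 30 to 49%, 80.2% at 50 to 79% and 79.2% at 80 to 100%. The preference for A after the cytosine thus reached its plateau just under the threshold and was somewhat lower at the highest levels.

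The flanking bases split the sites by level. TACAG made up 20.9% of the sites with a lower level of 20 to 29% and 17.4% of those at 30 to 49%, but 4.17% at 50 to 79% and 2.52% at 80 to 100%. A in front of the cytosine went from 41% at 30 to 49% to 12.5% at 50 to 79%, below the 23.1% of all sites. Soft-masked repeats, the sequence that the reference prints in lower case, ran the other way above the threshold, with 22.2% of sites at 20 to 29%, 30.8% at 30 to 49%, 51% at 50 to 79% and 66% at 80 to 100%. Below the threshold their share was uneven, with 25.4% at 0, 53% at 1 to 5% and 22.4% at 16 to 19%. The sites were therefore also described in 2 classes, divided at 50% by the lower level, a boundary set after these values were seen.

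**Figure D1:**
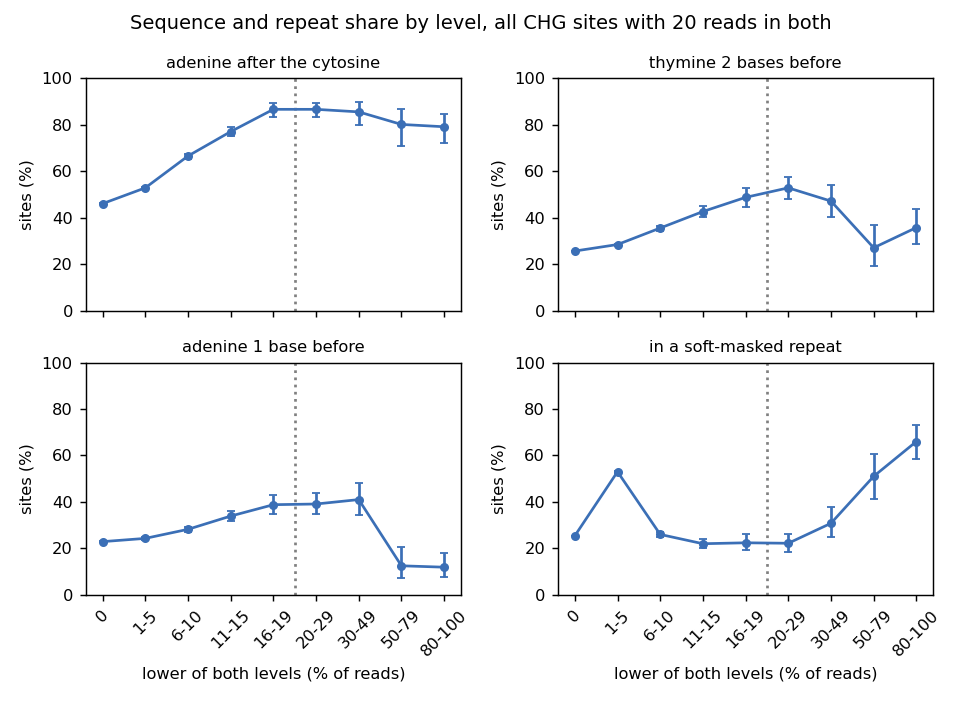
Share of CHG sites (%, with 95% Wilson intervals) with adenine after the cytosine, thymine 2 bases before it, adenine 1 base before it, and in a soft-masked repeat, by the lower of the levels in E3 and CT, for all CHG sites with 20 reads in both. The dotted line is the 20% threshold; adenine after the cytosine climbs from 46.1% to 86.7% left of it, while adenine before the cytosine falls to 12.5% and repeats reach 51 and 66% in the last 2 bins, after a separate peak of 53% at 1 to 5%.

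The lower class held 645 sites with a lower level of 20 to 49%. Their median level was 27% in E3 and 36% in CT, 86.4% were CAG, 51.2% had T 2 bases before, 39.7% had A 1 base before, and 24.8% lay in repeats. The upper class held 255 sites at 50% or more in both. Their median was 90% in E3 and 92% in CT, 79.6% were CAG, 32.5% had T 2 bases before, 12.2% had A 1 base before, and 60.4% lay in repeats. Both classes shared the A after the cytosine, and the lower class alone had both flanking bases above their share of 26.1% and 23.1% over all sites beyond the interval (the upper class had A before the cytosine at 8.70 to 16.7%).

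Over all 900 sites the median level was 32% in E3 (quartiles 24 and 66%) and 46% in CT (30 and 78.2%). In 323 sites both levels were between 20 and 39%, in 89 both were between 40 and 79%, and in 159 both were 80% or more. In 117 sites both libraries were at 90% or more, and in 18 both were at 100%. Fewer sites had both levels in the middle than at either end. Median depth at the sites was 51.5 reads in E3 and 25 in CT, so a level in CT moved in steps of several points.

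**Figure D2:**
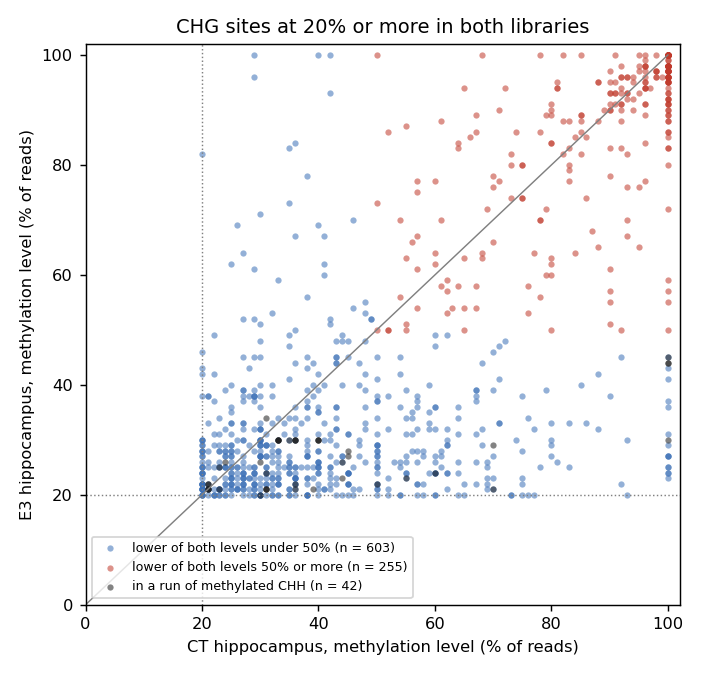
Methylation level of each of the 900 sites (% of reads) in the CT library (x axis) and the E3 library (y axis), 1 point a site. Dotted lines mark 20% and the grey line equal levels; 159 sites crowd the corner at 80% or more in both, 323 lie between 20 and 39% in both, and black points are the 42 sites in runs of methylated CHH.

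The 18 sites at 100% in both libraries tied for the highest mean level among those outside clusters with at most 500 reads, and the 10 of them with the most reads are described. Of these, 4 are shown as examples. CHH cytosines around all 10 had low levels, so this did not set the 4 apart. The trinucleotide is in capitals.
Fhit intron, chr14:10781570-10781594, minus strand: agacatgatgagCAGtgctgcctca
Dnah8 intron, chr17:30779586-30779610, minus strand: cctatactcgtcCAGttgatggaac
Dsp coding exon, chr13:38191723-38191747, plus strand: gaaggagaacctCAGctggcagaag
Pdgfd intron, chr9:6394376-6394400, minus strand: ccaggagatcatCAGggttggagcc

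The Fhit site, in the gene of a diadenosine triphosphate hydrolase, had 100% of 82 reads methylated in E3 and 100% of 25 in CT, while the CHH cytosines of its strand within 50 bases averaged 1.73% in E3 and 3.53% in CT. The cytosine of the same trinucleotide on the other strand, 2 bases away, had 0% of 106 reads in E3 and 8.00% of 24 in CT. At the site in Dsp, which codes for the desmosome protein desmoplakin, 100% of 41 reads in E3 and 100% of 30 in CT were methylated, with CHH around it at 0% and 2.86%. The Pdgfd site, in the gene of a platelet-derived growth factor, had 100% of 33 reads in E3 and 100% of 32 in CT, and its other strand 10% of 49 reads and 0% of 10. At Fhit and Pdgfd full methylation thus stood opposite a strand at 0 to 10%, which was not measured at Dsp and Dnah8. Elsewhere among the 10, the other strand was at 0% in both libraries at Sympk, chr9:82851229 and chr14:47749560. At chr1:190098902 it was at 0% of 46 reads in E3 and 17% of 36 in CT. The other 6 of these 10 lay in introns of Dennd4a and Sympk and outside genes on chromosomes 1, 9 (2 sites) and 14, and the Dnah8 intron site had 75 reads in E3 and 22 in CT, with a single CHH cytosine measured around it. The trinucleotides are those of the reference genome, and whether these outbred mice carry the same bases was not tested.

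The opposite strand of the sites was mostly unmethylated. The opposite-strand cytosine counted as measured with at least 5 reads in both libraries, as at 515 of the 863 CAG and CTG sites. This was so at 432 of 621 sites of the lower class and 83 of 242 of the upper class. At the 515 sites it had a median level of 0% in each library and a mean of 2.83% in E3 and 3.37% in CT. Over all CHG sites these means were 2.41% and 2.58%. The opposite cytosine reached 20% at 8 of 515 sites in E3 (1.55%, interval 0.789 to 3.03%) and at 30 in CT (5.83%, 4.11 to 8.19%), against 1.17% and 4.95% of all sites. It reached 20% in both libraries at 0 of 515, a count that allows a share of up to 0.583% (3 counts of the total, as for every count of 0 below), against 0.199% over all sites. With at least 20 reads on the opposite cytosine in both libraries this was 0 of 156, against 0.159% over all sites. The share over all sites lay within the interval or the limit each time. The opposite cytosine was at 0 slightly less often than over all sites, at 56.5% (52.2 to 60.7%) against 60.9% in E3 and at 80.6% (76.9 to 83.8%) against 87.3% in CT.

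The CpG neighbours were highly methylated. A CpG on the same strand within 50 bases was measured for 668 of the 900 sites, and the nearest had a median level of 90% in E3 and 93% in CT, against 73% and 72% over all CHG sites. It was at 50% or more for 91% of them in E3 and 88.2% in CT, against 63.6% and 61.7%. Both level classes had this, at 90.4% of the lower and 92.6% of the upper in E3. CHH cytosines within 50 bases had a median of 2.71% in E3 and 2.25% in CT, against 1.31% and 0.786%. The lower class had more CHH methylation around it, 3.20% in E3 and 3.06% in CT, than the upper class, 1.80% and 1.43%, so the most methylated CHG cytosines had the less methylated CHH around them.

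A small set of sites lay in runs, here stretches where the CHH cytosines of the same strand within 50 bases averaged 20% or more in both libraries, as at 42 of the 900 sites and at 110 of all 569948. The runs were defined after the values were seen. The preference for CAG was not seen in them, with 42.9% CAG (29.1 to 57.8%) and 45.2% CTG, close to the 47.1% and 44.9% of all sites, whereas outside runs 86.5% of 858 sites were CAG. Mean levels of neighbouring CHH in bins of 5 bases ran from 25 to 33.2% in E3 and from 33.2 to 51.6% in CT across the 50 bases on each side. Outside runs the same bins held 3.89 to 6.09% and 3.54 to 7.05%. Whether reads in runs escaped bisulfite conversion was not tested. Of the 42 sites, 37 were in clusters, and all 42 belonged to the lower class.

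**Figure D3:**
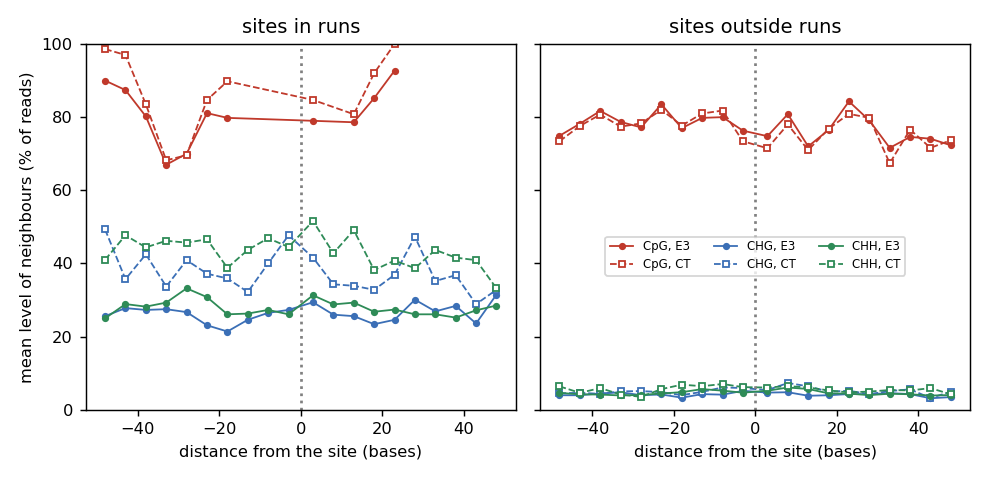
Mean methylation level (% of reads) of neighbouring CpG, CHG and CHH cytosines of the same strand by distance from the site in bins of 5 bases, for the 42 sites in runs (left) and the other 858 (right), with E3 as filled and CT as open symbols; bins with fewer than 5 neighbours are left out. In runs CHH neighbours lie between 25 and 33.2% in E3, outside runs between 3.89 and 6.09%, and CpG is high in both.

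Sites at most 100 bases apart were joined into clusters. There were 35 clusters with 90 sites (10%), 32 of them with all sites on 1 strand, and 810 sites stood alone. One cluster had 8 sites, another 5, 3 had 4, 5 had 3 and 25 had 2. In 10 clusters every site lay in a run. The stretches below show 3 of those in runs, the largest 2 and one with every site at 100% in CT, with the methylated CHG cytosines in capitals.
chr2:53991398-53991457, minus strand: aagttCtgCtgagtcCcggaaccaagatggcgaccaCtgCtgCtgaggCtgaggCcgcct
Ddx46, chr13:55638195-55638244, plus strand: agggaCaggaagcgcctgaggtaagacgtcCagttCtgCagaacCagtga
Dpf3, chr12:83314983-83315030, plus strand: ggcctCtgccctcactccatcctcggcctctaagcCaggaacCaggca

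The 8 sites of the chromosome 2 cluster, in a repeat outside annotated genes, were each at 30% in E3 with 46 to 47 reads and at 33 to 36% in CT with 22 to 24 reads. CHH around them stood at 29.7% in E3 and 33.2% in CT, so CHG and CHH cytosines had the same level along the stretch. Its 8 sites were 6 CTG, 2 CCG and no CAG. The 5 sites in Ddx46, which codes for an RNA helicase of the spliceosome, spanned an exon and the intron after it, at 21 to 34% of 29 reads in E3 and 31% of 26 reads in CT. In an intron of Lcp1, the actin-bundling protein L-plastin, 4 sites were at 30% of 20 reads in E3 and at 40 to 100% of 20 reads in CT. In an intron of Dpf3, a subunit of the BAF chromatin remodelling complex, 3 sites were at 44 to 45% of 31 to 32 reads in E3 and at 100% of 24 reads in CT, with CHH at 44.5% and 99.7%. Sites this close on 1 strand share reads, so the sites of a cluster are not separate measurements.

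Not every cluster was a run. At chr2:18034491-18034590, 4 CAG sites on both strands lay inside 2 overlapping long noncoding RNA genes, A930004D18Rik and Gm33085, within 1000 bases of the start of Gm33085. Their levels were 20 to 32% of 40 to 60 reads in E3 and 30 to 80% of 20 to 23 reads in CT, with CHH around them at 5.87% and 5.25%. A cluster of 4 on chromosome 4 (chr4:127301678-127301753) had 2 sites in runs, at 26 to 39% in E3 and 27 to 45% in CT. Among the clusters of 3, all sites were in runs on chromosome 7 (chr7:98346924-98346968; 21 to 26% in E3, 39 to 44% in CT) and chromosome 18 (chr18:41190223-41190254; 21% in both). None were on chromosome 8 (chr8:71729932-71729941; 22 to 37% in E3, 20 to 50% in CT) and chromosome 6 (chr6:144924984-144925034; 20 to 26% in E3, 53 to 93% in CT). CHH around the chromosome 8 sites stood at a median of 1.73% in E3 and 13.6% in CT. Around the chromosome 6 sites it stood at 15.4% in E3, under the 20% of a run, but at 58% in CT, within the range of the sites there.

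Many of the sites at high level lay in repeat copies. For each site the 25 bases centred on the cytosine were counted on both strands of the reference chromosomes, and so was the same window with G in place of the base after the cytosine, which turns the site into a CpG and is called its CpG form here. The window occurred more than once for 219 of the 900 sites (24.3%), near the 20.8% of all CHG sites. It did so for 17.1% of the lower class (14.3 to 20.1%) and for 42.7% of the upper class (36.8 to 48.9%). The CpG form occurred in the reference for 11.6% of the lower class, 35.3% of the upper class and 10.5% of all sites. It was more common than the window itself for 4.81% of the lower class, 17.6% of the upper class (13.5 to 22.8%) and 0.324% of all sites. Within soft-masked repeats alone this last share was 22.6% of 314 sites against 1.09% of all. How many reads at such a site came from another copy was not tested.

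**Figure D4:**
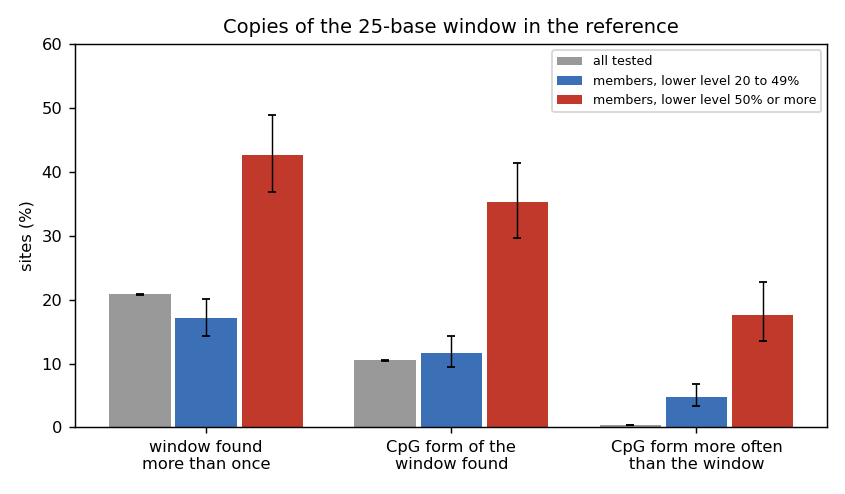
Share of sites (%, bars, with 95% Wilson intervals) whose 25-base window occurs more than once in the reference chromosomes, whose CpG form occurs at all, and whose CpG form is more common than the window itself, for all CHG sites with 20 reads in both (grey), the 645 sites of the lower class (blue) and the 255 of the upper class (red). The CpG form is the more common one for 17.6% of the upper class and 0.324% of all sites.

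The windows that recurred most often among the sites are shown with the trinucleotide in capitals, since identical sequence at different places is what the count above rests on.
14 sites: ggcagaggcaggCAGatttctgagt
10 sites: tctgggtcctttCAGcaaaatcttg
4 sites: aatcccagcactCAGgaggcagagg
4 sites: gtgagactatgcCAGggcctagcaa

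The first window occurred 21840 times in the reference and its CpG form 23277 times. Of 198 tested sites with exactly these bases 14 were methylated in both libraries, at 27 to 96% in E3 and 24 to 100% in CT. The second occurred 11466 times and its CpG form 37 times, and 10 of 93 tested sites were methylated in both, at 38 to 100% in E3 and 52 to 100% in CT. The third occurred 7835 times and its CpG form 17935 times, with 4 of 113 tested sites among the 900. The fourth occurred 4019 times and its CpG form 21234 times, with 4 of 7 tested sites among the 900, at 64 to 97% in E3 and 84 to 96% in CT. Copies of 1 sequence thus ranged from under 20% in at least 1 library to nearly all reads methylated in both.

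Of the 10 deepest sites, named after their values were seen, 6 had a window with 364 or more copies. The deepest, a CTG at chr9:3001260 in a repeat near the start of the assembled chromosome, had 88% of 6312 reads in E3 (87.2 to 88.8%) and 82% of 1358 in CT (79.9 to 84%), a difference of 6 points. An intron site of Incenp, which codes for an inner centromere protein, carried the most frequent window, at 44% of 2280 reads in E3 and 47% of 632 in CT. The same window was at 28% of 2218 and 32% of 546 reads at chr12:76518520, at 39% of 1654 and 38% of 487 at chr14:32122857, and at 29% of 1560 and 31% of 482 at chr5:138200217. At each of these 4 the intervals of the libraries overlapped. A pair of CCG sites with sequences alike except at 1 base had higher levels. They are shown because they lie on different chromosomes.
chr2:98665182-98665206, minus strand, intergenic: gttctacaaatcCCGtttccaacga
chr6:103649154-103649178, plus strand, Chl1 intron: gttctacaattcCCGtttccaacga
The first was at 90% of 1692 reads in E3 and 89% of 349 in CT, and the second at 94% of 1797 and 96% of 422.

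The 681 sites whose window occurred once in the reference kept the sequence preference. Of these, 584 (85.8%) were CAG and 127 (18.6%) TACAG, against 46.4% and 2.17% of the 451155 tested sites whose window occurred once. There were still 146 sites of the upper class among them (21.4%). Outside soft-masked repeats, 86.2% of 586 sites were CAG, 53.1% had T 2 bases before, 40.1% had A 1 base before and 20.1% were TACAG, and the median level was 28% in E3 and 42% in CT.

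By position, 414 of the 900 sites (46%) were intergenic, 366 (40.7%) intronic, 59 (6.56%) in exons and 61 (6.78%) in promoters, here within 1000 bases of an annotated start. Over all CHG sites of the same depth these shares were 37.5%, 34.8%, 8.70% and 19%. Promoters were thus the feature with the lowest share relative to all sites. Coding sequence held 34 sites (3.78%) against 8.31% of all, and 431 sites (47.9%) lay outside annotated genes against 41%. The upper class was intergenic in 54.1% and the lower class in 42.8%. The plus strand held 479 sites (53.2%, interval 50 to 56.5%). The library uses enzymes that cut at CCGG and TCGA, and 12 sites (1.33%) lay inside such a motif, against 0.142% of all.

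Over the autosomes and X the rate ran from 0.693 per 1000 tested sites on X (18 sites, 0.438 to 1.09) to 2.24 on chromosome 9 (66 sites, 1.76 to 2.84). Chromosome 14 had 2.12, chromosome 19 had 2.04 and chromosome 13 had 1.99 per 1000, and chromosome 15 had 0.929 (21 sites, 0.608 to 1.42). The interval lay wholly above the 1.58 per 1000 of all sites on chromosomes 9 and 14, and wholly below it on chromosomes 15 and X. The intervals of the other autosomes included that value. They count the sites of a cluster separately. Chromosome 14, with a lower limit of 1.60, includes the 4 Lcp1 sites, which share reads. On chromosome 9 some sites near its start, as at chr9:3001260, had windows found more than once. Whether either chromosome stays above with such sites counted once was not tested. On the Y chromosome 1 of 350 tested sites was methylated in both libraries (2.86 per 1000, 0.505 to 16). The offspring were female, so this rate is not read as methylation of the Y chromosome. Where the reads at these positions came from was not tested. On X, 10 of 18 sites belonged to the upper class, against 255 of 900 in all.

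**Figure D5:**
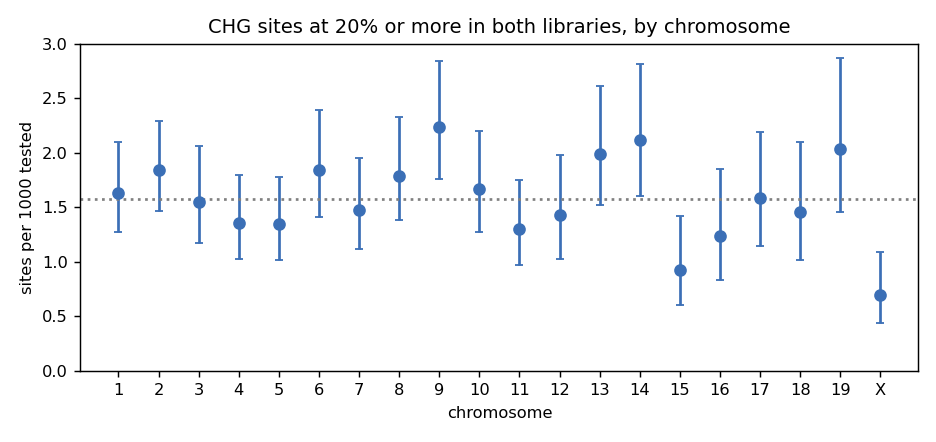
Sites methylated in both libraries per 1000 tested CHG sites on each autosome and on X, with 95% Wilson intervals for counting error. The dotted line is the rate over all chromosomes, 1.58 per 1000. With the sites of a cluster counted separately, chromosomes 9 and 14 lie above it and 15 and X below it.

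The 469 sites in genes were spread over 452 genes, of which 411 had 1 site, 34 had 2, 3 had 3, 3 had 4 and 1 had 5, and 36 sites lay in more than 1 gene. Ddx46 with 5, A930004D18Rik, Gm33085 and Lcp1 with 4, and Dpf3 with 3 owed their counts to the single clusters described above. Efna5, the ephrin-A5 ligand of axon guidance, had 3 sites at 2 places in its introns, all CAG on the plus strand, at 20, 24 and 30% in E3 and 31 to 47% in CT, of 119 tested. The first and last of these, 22 bases apart, formed a pair, with 20 reads in E3 and 30 in CT. CHH around the pair stood at 0.526% in E3 and 39.7% in CT, near the level of the pair in CT only. Ror1, a receptor of Wnt5a, had 2 neighbouring intron sites at 22 and 30% in E3 and 25 and 80% in CT, and a separate one in its introns at 98% of 59 reads in E3 and 95% of 39 in CT. The window of that separate site (chr4:100439168) occurred 11466 times in the reference. Of the 34 genes with 2 sites, the first 3 by symbol are given. Actbl2, an actin-like gene, had both in an exon at 24% in E3 and 60% in CT. They formed 1 cluster, with 42 reads in E3 and 30 in CT, and 1 of them lay in a run. CHH around them stood at 19.6% in E3 and 63.5% in CT, near their own level in both libraries. Akap12, an anchor of protein kinase A, had 21 and 34% in E3 and 21 and 76% in CT. Ano10, of the anoctamin family, had 28 and 25% in E3 and 50 and 23% in CT.

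Genes of the lists drawn up for brain and methylation held few of the sites. The imprinted genes had 0 of 631 tested sites, which allows up to 4.75 per 1000, and the DNA methylation enzymes and readers had 0 of 422, which allows up to 7.11 per 1000. The oligodendrocyte genes had 0 of 198, which allows up to 15.2 per 1000, and the microglia genes 0 of 21, which allows up to 143. The neuron genes had 1 of 1402, in an intron of Grin2b, a subunit of the NMDA receptor (chr6:136011402), at 37% of 35 reads in E3 and 50% of 24 in CT. The astrocyte genes had 1 of 141, in an intron of Aldh1l1, a folate enzyme of astrocytes (chr6:90570155), at 23% of 47 reads and 27% of 30. All genes together had 1.39 per 1000 and sites outside genes 1.85, so for each list the count could not be told from that of any gene at this depth.

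The E3 and CT libraries differed at part of the sites. With a 2-sided Fisher's exact test on methylated and unmethylated reads, a threshold of 0.05 on the unadjusted p and levels at least 10 points apart, 201 of the 900 sites (22.3%) were called, 32 higher and 169 lower in E3. The same rule called 3.43% of all CHG sites with 5 reads in both libraries (0.255% higher and 3.17% lower in E3) and 5.74% of those with 20 reads (1.05% and 4.69%). Nothing is read from this comparison, since the levels that chose the sites also enter the test, and a site near 0 in both libraries cannot differ by 10 points. With p adjusted by Benjamini-Hochberg over all CHG sites with 5 reads, 61 sites (6.78%) were called, 10 higher and 51 lower in E3. This called 0.841% of all sites with 5 reads (0.0105% higher and 0.831% lower) and 1.58% of those with 20 reads (0.0356% and 1.54%). Nothing is read from these shares either. The test compares 2 libraries and not the treatments.

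The direction was uneven. Of the 900 sites 590 (65.6%) were higher in CT, 260 (28.9%) higher in E3 and 50 equal. Over all CHG sites with 20 reads, of which 51.9% were equal, 14.4% were higher in CT and 33.7% higher in E3. Calls over the same sites leaned the other way, with 4.69% lower and 1.05% higher in E3. These shares therefore do not show whether the lean toward CT was particular to the 900 sites. Of the 900 sites, 467 (51.9%) had levels within 10 points of each other. Among the 49 sites with 100 reads in both libraries, 26 (53.1%, interval 39.4 to 66.3%) were higher in CT, and the medians were 60% in E3 and 62% in CT. Median depth over all CHG sites with 20 reads was 52 reads in E3 and 24 in CT, with a mean level of 2.13% and 2.18%, and the part of depth in the direction was not tested. The lower class was higher in CT at 69.8% and the upper class at 54.9%, and 86.8% of the 159 sites at 80% or more in both were within 10 points.

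The 5 called sites with the largest excess in E3 were at 82 to 100% there. Inside Bcat1, the gene of the cytosolic branched-chain aminotransferase, and within 1000 bases of the start of the long noncoding RNA gene Gm38925, a CAG on the minus strand (chr6:145064882) was at 100% of 74 reads in E3 and 29% of 28 in CT (adjusted p = 1.2e-10, Fisher's exact test). An intergenic repeat site at chr12:59402931 was at 96% of 147 and 29% of 28 reads. An intron site of Immp2l, a peptidase of the mitochondrial inner membrane, was at 82% of 84 and 20% of 20, and intergenic sites on chromosomes 18 and 2 were at 100% in E3 and at 40% and 42% in CT.

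The 5 with the largest deficit in E3 were each at 100% in CT. A coding-exon site of Itga11, a collagen-binding integrin subunit (chr9:62776879), was at 23% of 26 reads in E3 and 100% of 22 in CT (adjusted p = 2.5e-05, Fisher's exact test). An intron site of Adamts17, a secreted metalloproteinase, was at 24% of 21 and 100% of 22 reads, and one of Sbno1, a transcription regulator, at 25% of 28 and 100% of 24. The sites in Gm36201 and on chromosome 10 (chr10:119012972) were at 24% of 72 and 25% of 40 reads in E3. In all, 47 sites differed by 50 points or more, 40 of them lower in E3. The share over all sites was not taken, so nothing is read from this count. The Gm36201 and Adamts17 sites are both TACAG.
Itga11 coding exon, chr9:62776867-62776891, plus strand: ctctgaagatcaCAGtcaacgccgc
Adamts17 intron, chr7:66952011-66952035, minus strand: ccattgcaccTACAGtcatgccagg
Bcat1 and Gm38925, chr6:145064870-145064894, minus strand: catttaagaatgCAGccgctgtttt

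The frontal cortex table lists 4811 CHG sites that differed between E3 and CT there, without reads and without sites that did not differ. It held 13 of the 900 sites (1.44%) and 367 of the 569948 tested ones (0.0644%). In the cortex 9 of the 13 were higher and 4 lower in E3, whereas over all sites listed there 984 were higher and 3827 lower. Also 11 of the 13 were at 0 in 1 cortex library, as were 82.7% of all sites in that table. Of the 13, 7 were also called in the hippocampus, beside 22.3% of the 900 sites and 5.74% of all CHG sites with 20 reads. Nothing is read from this count, since the sites were chosen by the hippocampus levels that enter the test. At chr1:59730117, outside genes, the level was higher in E3 in both tissues, 76.9% against 0% in the cortex and 93% of 67 against 42% of 24 reads in the hippocampus. At chr3:72758105, chr10:68346488 and chr11:49102426 it was lower in E3 in both, with 0, 0 and 14.6% in E3 against 50, 45.5 and 48.1% in CT in the cortex. An intron site of Cacna2d3, a calcium channel subunit gene, was at 38.1% in E3 and 0% in CT in the cortex, while in the hippocampus it was at 80% of 132 and 83% of 46 reads. Most of the 13 were thus listed at 0 in 1 cortex library, in a table that can only show sites where the libraries differ.

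The threshold cut through a continuous range. Just inside it, the 5 sites with a lower level of 20% and most reads were at 20% of 2315 and 22% of 557 reads (chr19:23098812), 21% of 127 and 20% of 40 (chr9:95250463), 20% of 108 and 30% of 50 (Cdh13 intron), 20% of 121 and 33% of 30 (chr3:130976079), and 29% of 112 and 20% of 30 (chr14:109191595), in E3 and CT. Just outside, with a lower level of 19%, 3 sites lay in introns or promoters of Gm36876 (19% of 1357 and 21% of 2056 reads), Adgrg1 (19% of 108 and 26% of 70) and Kcnmb2 (19% of 118 and 23% of 39). The others were an intergenic site at chr3:20716357 (19% and 35%) and one in Pax6os1 (26% and 19%). All 10 are CAG, and the intervals of those inside and outside overlap.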

How the data were processed

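Methylation was measured by reduced representation bisulfite sequencing with TaqαI and MspI digestion in 1 library each of E3 and CT hippocampus and frontal cortex. The authors trimmed reads with TrimGalore, aligned them to mm10 with Bismark and called methylation with MethylDackel. The deposited hippocampus tables give read counts and the methylated fraction, rounded to 2 decimals, for each cytosine with at least 5 reads in both libraries. The frontal cortex CHG table gives the authors' methylated fractions for called sites only, without reads. Columns of differences and p-values were not used, nor were the frontal cortex CpG and CHH tables.

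Start positions count from 0 in the hippocampus tables and were moved to 1. Each cytosine was read from RefSeq GRCm38 (the sequence of mm10), with its gene annotation. Methylated reads were rebuilt as fraction times reads, rounded. The test was a 2-sided Fisher's exact test per site, tested on simulated data, with Benjamini-Hochberg adjustment over all CHG sites with 5 reads. Members and gene lists were chosen with earlier results of these data known. Named were the 10 largest clusters, the 10 genes with most sites (ties by symbol), the 10 highest sites outside clusters with at most 500 reads (ties by more reads), the 5 largest called differences each way, 5 sites on each side of the threshold, and sites in 6 gene lists (imprinted, DNA methylation and readers, neuron, astrocyte, oligodendrocyte, microglia). Other sites are named for values already seen. The 25-base windows were matched exactly. At the sites depth was 20 to 6312 reads in E3 and 20 to 1358 in CT, and with 20 reads a level moves in steps of 5 points. Alternatives changed the read minimum, the level minimum, depth, chromosomes, repeats, windows and the call rule. Python 3.11.15, numpy 2.4.6, pandas 2.3.3, scipy 1.17.1, numba 0.67.0 and pysam 0.24.0 were used.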

Additional observations from a re-analysis of the deposited data

Results flagged for a closer look

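Of the sites, 3 were called in both tissues with opposite directions between E3 and CT. Each tissue has 1 library a group, so the difference between tissues was not tested. At chr9:92088879, outside genes, the hippocampus level was 67% of 45 reads in E3 and 93% of 27 in CT, a difference of -26 points, while the frontal cortex had 96% in E3 and 0% in CT. At chr4:154705330, a CCG outside genes, the hippocampus had 26% of 47 reads in E3 and 81% of 21 in CT, or -55 points, and the cortex 66.7% and 0%. At chr13:25225659, outside genes, the hippocampus had 55% of 62 reads in E3 and 100% of 21 in CT, or -45 points, and the cortex 38.1% and 0%. In the cortex each of them was higher in E3, with CT at 0%.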

How the results depend on the processing

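Of 144 alternative values, 93 stayed within the 95% interval of the value given (counts within 1.5 times) and 51 did not. The reads and level required set the outcome. With 10, 40 reads in both, a level of 0.10 or 0.40, the number of sites was 4424, 125, 4163 and 308, against 900. Their median level was 64% in E3 and 68% in CT with 40 reads, 14% and 24% at 0.10, and 86% and 90% at 0.40. The CAG share was 81.6% with 40 reads, 79% at 0.10 and 81.5% at 0.40. The share in repeats was 27.2%, 73.6%, 25.5% and 56.8% in the same order of settings, the share outside genes 44.2%, 60%, 42.8% and 55.8%, and the share in clusters 14%, 6.40%, 22.3% and 3.57%. CHH around the sites was at 2.63% in CT with 40 reads, 4% in E3 and 3.15% in CT at 0.10, and 1.89% and 1.52% at 0.40. The nearest CpG was at 100% in CT with 10 reads, 83.5% in E3 and 83% in CT with 40 reads, and 88% in CT at 0.40. The opposite-strand median in E3 was 2.00% with 40 reads.

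Without soft-masked repeats 586 sites remained, with medians of 28% in E3 and 42% in CT, a CHH level of 2.96% in E3, a nearest CpG of 100% in CT and 38.9% outside genes. Without windows found more than once, an alternative chosen after seeing the data, the E3 median was 29%, the CHH level in E3 2.93%, the share in repeats 16.4% and outside genes 41.3%. Without runs, also added later, 6.06% were in clusters. Joining sites up to 1000 bases apart put 12.4% in clusters, and promoters of 500 bases held 3.22%. Calls by adjusted p fell to 10 higher and 51 lower in E3. Only the CTG share at 0.10 moved besides, to 17.9%, and no alternative of the remaining ones left its interval. Why each setting moved a value was not tested. No paired analysis was possible because each group has 1 library, and for the same reason no library could be left out.

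Depth limits the CT library most, where a site had a median of 25 reads. A level of 20% can there rest on 4 methylated reads of 20.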
